A study of Homo sapiens with 4 samples.

Results

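The SR splicing factors were examined as 10 genes, SRSF1, SRSF2, SRSF3, SRSF4, SRSF5, SRSF6, SRSF7, SRSF9, SRSF10 and SRSF11, matched by symbol to the Ensembl identifiers of a table that lists 66963 genes after 45 empty duplicate entries were set aside. All 10 were found and all 10 entered the test. RNA was sequenced from cells taken here as human SAS cells, a line from a squamous carcinoma of the tongue. The growth protocol names SAS, but other labels give a mouse fibroblast line. An shRNA against luciferase (Ctrl, 2 libraries) or against STAU1 (shSTAU1, 2 libraries) had been delivered by virus. Both groups were infected and are given as wild type, so the control shares the virus and differs in the hairpin. A single hairpin per group is named in the labels, and nothing says that the libraries of a group came from separate cultures, so the p-values measure the spread between these libraries, which may be technical. The libraries were made with a kit that captures coding exons (TruSeq RNA Exome), from total RNA.

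SR proteins bind exonic splicing enhancers through RNA recognition motifs and recruit the spliceosome through a domain rich in serine and arginine, which kinases phosphorylate. Their genes are known for poison exons, cassette exons whose inclusion brings in a premature stop codon and sends the mRNA to nonsense-mediated decay. In other family members, splicing of an intron in the 3' UTR makes the normal stop codon a signal for decay, and several SR proteins limit their own amounts in these ways. STAU1 binds double-stranded RNA and, in STAU1-mediated decay, recruits UPF1, a helicase that nonsense-mediated decay also needs. The comparison of Ctrl with shSTAU1 cells therefore bears on mRNA levels of a family whose transcripts are decay substrates, as far as gene-level counts can show.

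In GENCODE 29, on GRCh38, each of the 10 genes has at least 1 transcript annotated as a target of nonsense-mediated decay, 22 such transcripts in all, against 35.6% of 19951 protein-coding genes that have one. The genes were chosen for this property, so it is a description of them. For SRSF3, SRSF4, SRSF6, SRSF7, SRSF9 and SRSF11, the stop codon of such a transcript lies in an exon that the principal transcripts lack. For each of these 6 genes, 1 such exon is shown. It is the longest in decay transcripts with no end flagged as missing, or in any decay transcript where those had none. The sequence runs from the first base of the exon to the stop codon, which is in capitals, because the premature stop is the feature that defines a poison exon. Whether each exon is a cassette exon was not tested.
SRSF3, chr6:36599821-36599854, plus strand, the start of an exon of 456 bases: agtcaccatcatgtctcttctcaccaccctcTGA
SRSF4, chr1:29166009-29166064, minus strand, the start of an exon of 175 bases: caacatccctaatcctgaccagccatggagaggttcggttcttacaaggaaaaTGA
SRSF6, chr20:43459153-43459304, plus strand, the start of an exon of 268 bases: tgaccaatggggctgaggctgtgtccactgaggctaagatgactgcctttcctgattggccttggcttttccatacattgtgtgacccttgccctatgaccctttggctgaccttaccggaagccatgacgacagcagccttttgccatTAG
SRSF7, chr2:38749319-38749346, minus strand, the start of an exon of 449 bases: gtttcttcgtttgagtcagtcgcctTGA
SRSF9, chr12:120464812-120464822, minus strand, the start of an exon of 90 bases: aaaactatTAG
SRSF11, chr1:70231859-70231908, plus strand, the start of an exon of 117 bases: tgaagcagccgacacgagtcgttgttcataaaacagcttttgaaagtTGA
The stop codon came within 11 to 152 bases of the exon's start. SRSF1, SRSF2, SRSF5 and SRSF10, the other 4 genes, have decay transcripts too, but none with its stop codon in such an exon. The deposited counts are 1 number per gene, so transcripts that include these exons and transcripts that skip them were counted together, and the use of poison exons was not measured.

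STAU1, the targeted gene, stood at 249 and 251 CPM (counts per 1000000 counts, scaled by TMM) in the Ctrl libraries and at 41.6 and 41.5 CPM in the shSTAU1 libraries. It fell by 2.59 on the log2 scale (SE 0.13, adjusted p = 0.00103, edgeR quasi-likelihood test with Benjamini-Hochberg adjustment over 14303 tested genes), which leaves 0.166 of its Ctrl level. The libraries held 32206655 to 36301574 counts. The labels also give a mouse fibroblast line as the source, against a human organism and SAS cells in the growth protocol. The markers of squamous epithelium summed to between 7170 and 7620 CPM in the Ctrl libraries and between 8720 and 11400 CPM in the shSTAU1 libraries. Of these 10 markers, 2 were called higher, KRT5 (log2 difference 0.65, adjusted p = 0.0408) and SFN (1.43, adjusted p = 0.0285), and 0 lower. Of all tested genes, 2.60% were called. At an unadjusted p of 0.05 in edgeR, 5 of the 10 passed, against 24.5% of all tested genes. The differences of the 10 ran from -1.21 to 1.43, and the desmosomal cadherins DSC3 (-1.21, adjusted p = 0.051) and DSG3 (-0.76, adjusted p = 0.0731) lay on the lower side with the groups apart. The 7 fibroblast markers summed to 17.3 to 22.6 CPM in Ctrl and 10.1 to 10.7 CPM in shSTAU1, with THY1 at 0, COL1A1 lower (log2 difference -1.35, adjusted p = 0.036) and COL1A2 at 1.19 and 1.68 CPM in Ctrl and 2.15 and 3.62 CPM in shSTAU1 (1.01, adjusted p = 0.185). KRT5 was no longer called when either Ctrl library was left out or when libraries were scaled by library size or upper quartile, and COL1A1 without Ctrl replicate 2 (adjusted p = 0.0928). With no filter on low counts, KRT5, SFN and COL1A1 all lost the call. The 5 leukocyte markers summed to at most 1.15 CPM in any library. CD14, the 1 of them that was tested, had 5 reads in each Ctrl library and 40 and 15 in the shSTAU1 libraries (log2 difference 2.36, adjusted p = 0.111). The part of these markers in the results was not tested.

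No SR splicing factor passed the test in the edgeR fit to all 4 libraries without a replicate block. At an adjusted p of 0.05, 0 of 10 were called higher and 0 of 10 lower. Of all tested genes, 2.60% (161 higher and 211 lower) were called. By DESeq2, 0 of 10 were called, against 12.0% of the genes it tested. At an unadjusted p of 0.05 in edgeR, 1 of 10 passed, SRSF9, against 24.5% of all tested genes. The 2 groups did not overlap for 5 of 10, against 56.6% of all tested genes. The median log2 difference over the 10 genes was 0.10, beside 0.0059 over all tested genes, with 7 values above 0 and 3 below. For 1 gene taken alone, the smallest two-sided p that an exact permutation test of 2 against 2 libraries allows is 0.333.

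**Figure D1:**
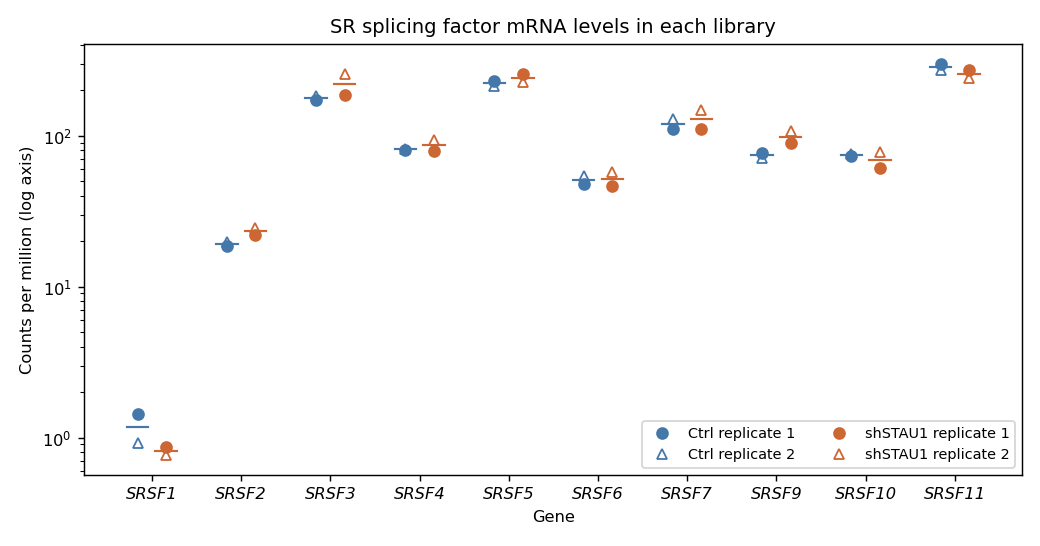
Level of each SR splicing factor in CPM (log axis) in the 4 libraries, with circles for replicate 1, triangles for replicate 2 and a short line at the mean of each group. CPM is not corrected for length, so heights compare libraries of 1 gene and not genes. The Ctrl and shSTAU1 points of a gene lie close together on this scale.

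SRSF1, SRSF3 and SRSF7 bind purine-rich or pyrimidine-rich exonic elements and shuttle between nucleus and cytoplasm as adaptors of mRNA export. Their fitted values were of both signs, and each 95% interval included 0. SRSF3 stood at 172 and 184 CPM in Ctrl and at 186 and 254 CPM in shSTAU1. Both shSTAU1 libraries were above both Ctrl libraries, but replicate 1 only just, and replicate 2 alone stood well above. The log2 difference was 0.31 (SE 0.17, 95% interval -0.09 to 0.70, adjusted p = 0.301), a fold of 1.24.

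SRSF7, a close relative of SRSF3 with a zinc knuckle in addition, stood at 111 and 128 CPM in Ctrl and at 111 and 148 CPM in shSTAU1. In each group replicate 2 was the higher library, and the groups overlapped. The log2 difference was 0.11 (SE 0.17, 95% interval -0.28 to 0.51, adjusted p = 0.715).

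SRSF1, the founding member of the family, had 48 and 30 reads in the Ctrl libraries and 30 and 27 in the shSTAU1 libraries, or 1.43, 0.916, 0.862 and 0.764 CPM. Ctrl replicate 1 was the high library and the other 3 were alike. The log2 difference was -0.53 with an interval from -1.64 to 0.59 (SE 0.48, adjusted p = 0.53), the widest of the 10. With this few reads of the gene, the data allow both a lower and a higher level by much.

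SRSF2, a nuclear factor that binds exonic enhancers and is recurrently mutated in myeloid neoplasms, stood at 18.5 and 19.7 CPM in Ctrl and at 21.9 and 24.5 CPM in shSTAU1. The groups were apart, with a log2 difference of 0.28 (SE 0.17, 95% interval -0.11 to 0.67, adjusted p = 0.336). SRSF9, a shorter SR protein with a pair of RNA recognition motifs, stood at 77.0 and 71.3 CPM in Ctrl and at 89.5 and 107 CPM in shSTAU1. Both shSTAU1 libraries lay above both Ctrl libraries. Its log2 difference of 0.41 was the largest upward value of the 10 (fold 1.33, SE 0.14, 95% interval 0.07 to 0.75), with an unadjusted p of 0.0236 and an adjusted p of 0.139 in edgeR. The adjusted p lay between 0.122 and 0.278 over the alternatives with all 4 libraries and no replicate block.

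SRSF3 and SRSF9 changed their call with a replicate block and with the libraries that entered the fit. With all 4 libraries and the replicate number as a block, edgeR called SRSF3 (adjusted p = 0.039) and SRSF9 (adjusted p = 0.00467) higher. That fit called 28.6% of all tested genes. It fits 1 more coefficient to the same 4 libraries, so its p-values rest more on the spread shared across genes. Without shSTAU1 replicate 1, SRSF3 (log2 difference 0.52, adjusted p = 0.00806 in edgeR) and SRSF9 (0.53, adjusted p = 0.0107) were called, in a fit that called 18.4% of all genes and took the spread of the Ctrl pair for the lone shSTAU1 library as well. Without shSTAU1 replicate 2, the value of SRSF3 was 0.04 (adjusted p = 0.894) and that of SRSF9 was 0.25 (adjusted p = 0.32).

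SRSF4, SRSF5 and SRSF6, which like SRSF1 and SRSF9 carry a second, atypical RNA recognition motif, had values close to 0. SRSF4 stood at 80.7 and 81.5 CPM in Ctrl and at 79.6 and 93.2 CPM in shSTAU1, with a log2 difference of 0.09 (SE 0.14, adjusted p = 0.721). SRSF5 stood at 230.4 and 213 CPM in Ctrl and at 255 and 226 CPM in shSTAU1, with a log2 difference of 0.12 (SE 0.13, adjusted p = 0.615). The groups of both genes overlapped.

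SRSF6 stood at 47.8 and 54.1 CPM in Ctrl and at 46.6 and 57.1 CPM in shSTAU1, so that both shSTAU1 values enclosed the Ctrl values. Its log2 difference was 0.03 (SE 0.16, adjusted p = 0.937) and was -0.03 when libraries were scaled by library size or upper quartile. The 95% interval ran from 0.787 to 1.32 times the Ctrl level, so the data allow differences within it in either direction.

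SRSF10 and SRSF11 are the least typical of the 10. SRSF10 represses splicing when it is dephosphorylated, and SRSF11 (p54) is found with U2AF. SRSF10 stood at 73.7 and 75.7 CPM in Ctrl and at 60.7 and 78.1 CPM in shSTAU1, the lowest and the highest library being both of shSTAU1, with a log2 difference of -0.11 (SE 0.16, adjusted p = 0.715) that became 0.06 without shSTAU1 replicate 1. SRSF11, the most counted of the 10, stood at 299.5 and 273 CPM in Ctrl and at 269.6 and 239 CPM in shSTAU1. Its groups were narrowly apart, and its log2 difference was -0.17 (SE 0.13, 95% interval -0.47 to 0.13, adjusted p = 0.452).

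**Figure D2:**
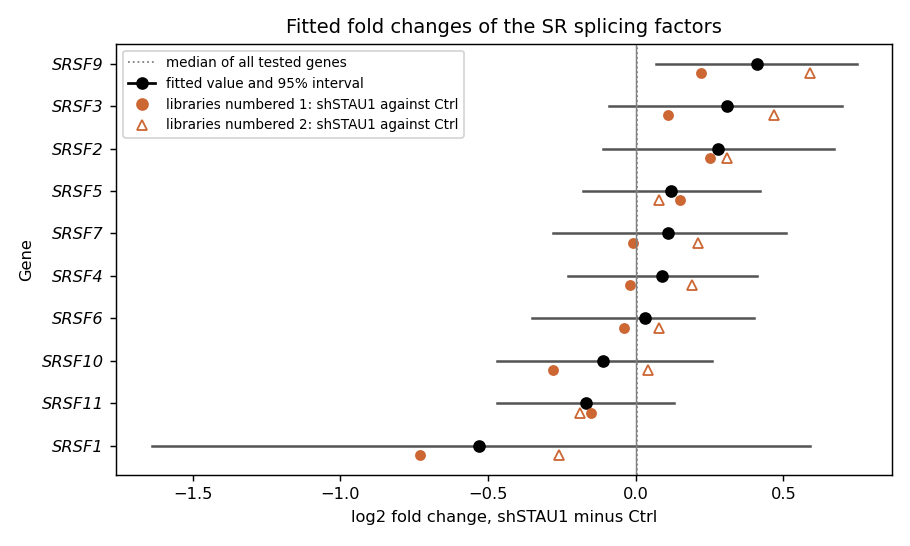
Fitted log2 fold change of each SR splicing factor, shSTAU1 minus Ctrl (black points), with its 95% interval, and the log2 ratio of the libraries that carry the same number (filled circles for 1, open triangles for 2). The dotted line is the median of all tested genes, 0.0059. The interval of SRSF9 (0.07 to 0.75) lies above 0, the intervals of the other 9 genes include 0, and that of SRSF1 is the widest.

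The 2 shSTAU1 libraries also differed from each other. Replicate 2 was above replicate 1 within shSTAU1 for 7 of the 10 genes, by 0.16 to 0.45 on the log2 scale, with SRSF3 (0.45), SRSF7 (0.41) and SRSF10 (0.36) at the top, while SRSF1, SRSF5 and SRSF11 each stood at -0.17. The median of this difference over the 10 genes was 0.24, beside -0.0071 over the tested genes with reads in every library. Within Ctrl the median was 0.03, and 6 of 10 were higher in replicate 2. The sign of the difference between replicates 2 and 1 was the same in both groups for 9 of 10, the exception being SRSF9, against 64.0% of tested genes. The shSTAU1 replicate 2 library held the highest level of the 4 for 7 of the 10. This count, and the counts of genes higher in replicate 2, were not set against all tested genes.

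The summed level of the 10 genes was 1112 and 1101 CPM in Ctrl and 1120 and 1228 CPM in shSTAU1, or 1107 ± 7.74 against 1174 ± 76.3 CPM (SD, n = 2 each). SRSF11, SRSF5 and SRSF3 held most of these reads in every library. SRSF11 took 25.9% ± 1.53 of the summed counts in Ctrl and 21.8% ± 3.25 in shSTAU1, SRSF5 took 20.0% ± 0.95 and 20.6% ± 3.08, and SRSF3 took 16.1% ± 0.892 and 18.6% ± 2.93 (SD, n = 2). In shSTAU1 replicate 2, SRSF3 held 20.7% of the reads and SRSF11 held 19.5%.

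CPM and shares of the summed counts are not corrected for length, and a longer transcript collects more reads. Levels of different genes were therefore set in order per length, as CPM per kb of 1 principal transcript. In Ctrl, SRSF5 (78.8 ± 4.29 CPM per kb, SD, n = 2) and SRSF11 (75.6 ± 5.0) led and overlapped between libraries. SRSF9 (61.7 ± 3.36) came next and was apart from both its neighbours. SRSF7 (48.0 ± 4.7) and SRSF10 (45.8 ± 0.904) overlapped, and were followed by SRSF3 (42.1 ± 2.04), SRSF4 (34.0 ± 0.231), SRSF6 (11.8 ± 1.02), SRSF2 (6.62 ± 0.31) and SRSF1 (0.775 ± 0.239), each apart from the next. Apart and overlap refer here to the 2 Ctrl libraries of each gene, whose spread does not cover differences in capture between genes. The order also depends on the length used. Per kb of coding sequence, the part that the exome kit targets, SRSF3 moved from the 6th place to the 1st (362 ± 17.5 CPM per coding kb), ahead of SRSF5 (272 ± 14.8) and SRSF11 (197 ± 13.0). The 4 lowest places, SRSF4, SRSF6, SRSF2 and SRSF1, were the same by both lengths.

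The 2 genes with the lowest levels were also those whose coding exons lie under another gene's exons. All coding bases of SRSF1 (chr17:58003360-58007346, minus strand) are shared with exons of other genes in GENCODE 29, and 88.5% of its principal transcript with a readthrough gene on the same strand, ENSG00000266086, which is listed at 0 in all 4 libraries. Of the coding bases of SRSF2 (chr17:76734115-76737374, minus strand), 96.1% are shared with exons of other genes. The main partner is MFSD11 on the opposite strand, counted at 612 and 699 reads in Ctrl and 576 and 638 in shSTAU1. SRSF9 shares 21.3% of its coding bases, with GATC on the opposite strand (45 to 95 reads in a library). The other 7 genes share none.

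Over all protein-coding genes, 55.4% of the 14902 with no shared coding base reached 1 CPM in Ctrl, against 7.1% of the 967 that share 95% or more of their coding bases, of which 654 were at 0. The share did not fall steadily: it was 62.7% of the 3408 genes that share some but under 50%, the class of SRSF9, and 41.2% of the 639 that share 50% to under 95%. The counting program and its strand setting are not given in the sources used here, and the part of shared exons in the low counts of SRSF1 and SRSF2 was not tested. The levels of SRSF1 and SRSF2 are therefore uncertain, and reads of SRSF2 or SRSF9 cannot be told apart from those of their opposite partners if strand was not used. The 13 SRSF pseudogenes in the table hold few reads. SRSF6P2 is the 1 above 10 reads, with 41 and 52 in Ctrl and 40 and 84 in shSTAU1, and reads that fit both copies could be split between it and SRSF6.

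**Figure D3:**
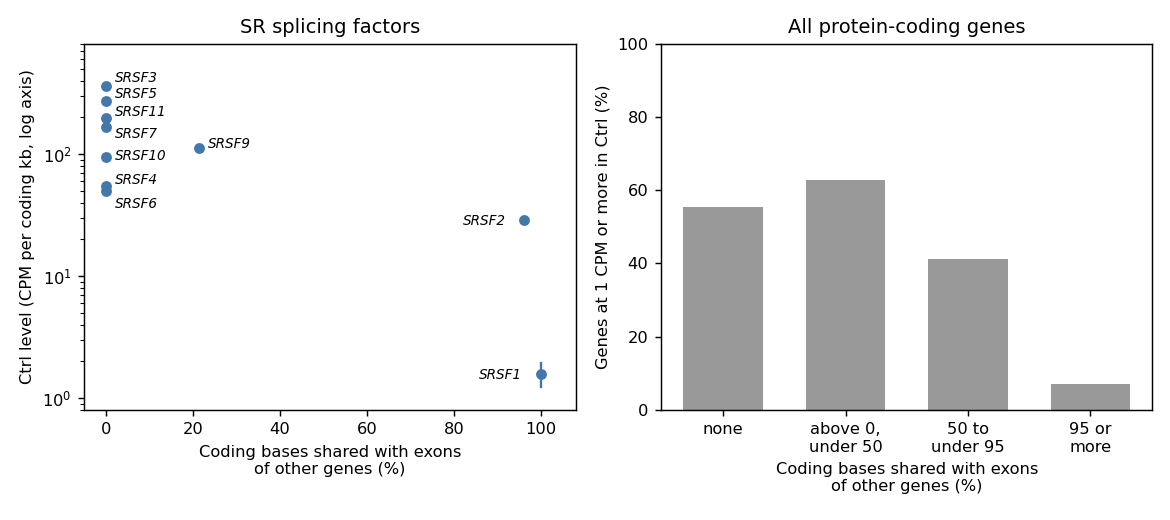
Left, Ctrl level of each SR splicing factor in CPM per kb of coding sequence (log axis; points are means and lines span the 2 libraries) against the percentage of its coding bases that lie in exons of other genes. Right, percentage of protein-coding genes at 1 CPM or more in Ctrl, in 4 classes of the same share. SRSF1 (100%) and SRSF2 (96.1%) are the lowest 2 of the 10, and 7.1% of the genes in the class of 95% or more reach 1 CPM against 55.4% of those that share none and 62.7% of those that share some but under 50%.

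The family members outside the 10 were SRSF8 and SRSF12. SRSF8, a single-exon relative of SRSF2, stood at 8.39 and 10.7 CPM in Ctrl and at 14.0 and 14.5 CPM in shSTAU1. The groups were apart, with a log2 difference of 0.58 (SE 0.21, adjusted p = 0.146). SRSF12 is listed at 0 in all 4 libraries.

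In the edgeR fit to all 4 libraries without a replicate block, other genes of the same machinery were mostly short of the threshold. More of them were called with the block. Of 31 tested SR-related proteins, edgeR called 0 higher and 1 lower, beside 2.60% of all tested genes. DESeq2 called 1 higher and 2 lower, beside 12.0% of the genes it tested. Their median log2 difference was -0.01, with 9 at an unadjusted p under 0.05 in edgeR (24.5% of all tested genes were). The calls varied with the library left out, in fits that leave 1 library in a group. The 1 called by edgeR with all 4 libraries was NKTR, a cyclophilin with an RS domain. It stood at 222 and 213 CPM in Ctrl and 147 and 137 CPM in shSTAU1 (log2 difference -0.62, adjusted p = 0.0489). RNPS1, which joins the exon junction complex to the splicing machinery, stood at 76.8 and 77.5 CPM in Ctrl and 107 and 121 CPM in shSTAU1 (0.56, adjusted p = 0.0654).

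Of the 12 tested genes that phosphorylate SR proteins, dephosphorylate them or import them into the nucleus, 0 were called in edgeR, 7 had an unadjusted p under 0.05 (24.5% of all tested genes did), and the median was -0.02. DESeq2 called 2 higher and 1 lower, beside 12.0% of all the genes it tested. The calls in edgeR varied with the library left out, in fits that leave 1 library in a group. The smallest p-values belonged to catalytic subunits of protein phosphatase 1, which removes phosphates from RS domains. PPP1CC stood at 193 and 221 CPM in Ctrl and 276 and 365 CPM in shSTAU1 (log2 difference 0.63, adjusted p = 0.0766), and PPP1CB at 58.1 and 55.2 against 76.6 and 84.4 CPM (0.51, adjusted p = 0.079). The kinase CLK2 is listed at 0 in every library, as are HNRNPL and HNRNPR of the next list, which says nothing of whether these genes were expressed.

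The hnRNP proteins, which often oppose SR proteins at splice sites, had 23 of 26 tested values above 0, where 50.4% of all tested genes did, and a median of 0.33, beside 0.10 for the 10 SR splicing factors. Without shSTAU1 replicate 2, the median of the hnRNP proteins was 0.12 and that of the SR splicing factors was -0.08. HNRNPF, which binds G-runs, was the 1 called higher, at 144 and 158 CPM in Ctrl and 250.2 and 262 CPM in shSTAU1 (log2 difference 0.76, adjusted p = 0.0358), and 0 were called lower. DESeq2 called 4 higher and 0 lower. Over all genes that each tested, edgeR called 2.60% and DESeq2 called 12.0%. At an unadjusted p of 0.05 in edgeR, 12 hnRNP proteins passed, against 24.5% of all tested genes. HNRNPA1, an antagonist of SRSF1 in the choice of splice site, stood at 1210 and 1270 CPM in Ctrl and 1770 and 1900 CPM in shSTAU1 (0.57, adjusted p = 0.0522). The number of hnRNP proteins called higher varied with the library left out, in fits that leave 1 library in a group.

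Of 18 other genes known for unproductive splicing of their own transcripts, 0 were called in edgeR, 4 had an unadjusted p under 0.05 (against 24.5% of all tested genes), and the median was 0.13. DESeq2 called 2 higher and 0 lower, beside 12.0% of all the genes it tested. The median was 0.27 without shSTAU1 replicate 1, -0.08 without shSTAU1 replicate 2 and 0.04 without Ctrl replicate 1. The calls in edgeR varied with the library left out, in fits that leave 1 library in a group. RPL12 (log2 difference 0.76, adjusted p = 0.06) and RPL3 (0.45, adjusted p = 0.0849), ribosomal proteins that regulate the splicing of their own pre-mRNA, had the smallest p-values. Of the 14 factors of nonsense-mediated decay and the exon junction complex, edgeR called 1 higher and 1 lower, beside 2.60% of all tested genes. By DESeq2, 2 were called higher and 2 lower, beside 12.0% of the genes it tested. At an unadjusted p of 0.05 in edgeR, 5 passed, against 24.5% of all tested genes. Their median was 0.02, and ran from -0.15 (without shSTAU1 replicate 2) to 0.12 (without shSTAU1 replicate 1) with 1 library left out. Here too the calls varied with the library left out. MAGOH, a core subunit of the exon junction complex, stood at 57.0 and 62.2 CPM in Ctrl and 95.9 and 114 CPM in shSTAU1 (0.82, adjusted p = 0.0366). SMG5, which helps to dephosphorylate UPF1, stood at 151 and 159 CPM in Ctrl and 90.5 and 103 CPM in shSTAU1 (-0.68, adjusted p = 0.0467). NKTR, HNRNPF, MAGOH and SMG5 each lost the call when either Ctrl library was left out, with an adjusted p of up to 0.208. All 4 lost it with no filter on low counts, and NKTR and SMG5 also under a correction for length and GC content of the transcript. No test compared the lists with each other.

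**Figure D4:**
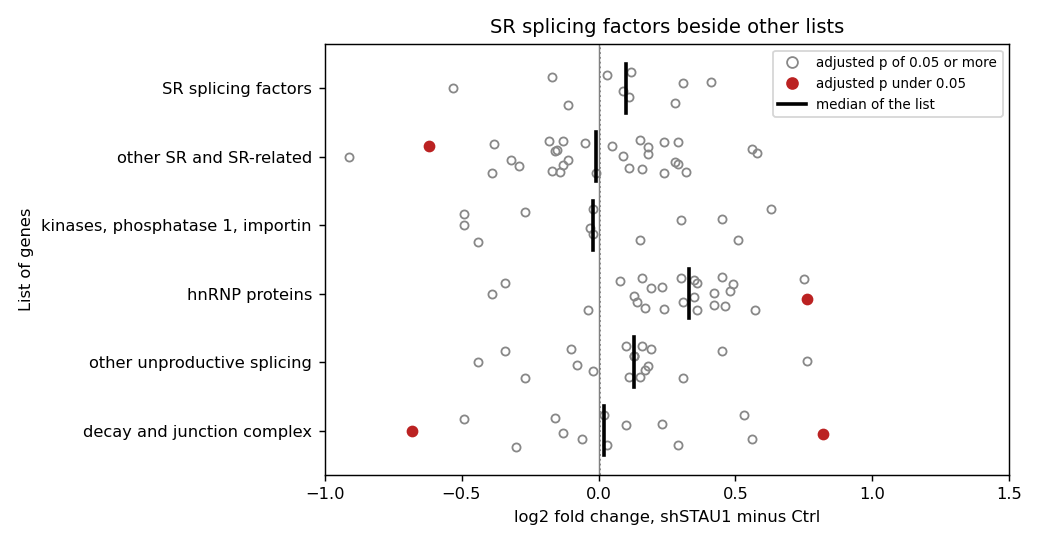
Fitted log2 fold changes, shSTAU1 minus Ctrl, of the tested genes of each list, with 1 point per gene, filled red where the adjusted p is under 0.05, a black bar at the median of the list and a dotted line at the median of all tested genes. None of the 10 SR splicing factors is filled, their median is 0.10, and that of the hnRNP proteins is 0.33. Genes that are in more than 1 list are drawn in each.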

How the data were processed

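RNA from 2 Ctrl and 2 shSTAU1 libraries of cells taken as SAS was measured. The authors deposited raw whole-number counts, 1 per gene and library, which they had not normalized. Per the labels, the submitters' processing notes name Partek and hg38. The aligner, counter, strand setting and annotation release are not given in the sources used here. No sample column was left unmapped (0). No library was a repeat of another (the chi-square between the counts of a pair, divided by its degrees of freedom, was 25.2 in Ctrl and 60 in shSTAU1).

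Counts were fitted in R 4.3.3 with edgeR 4.0.16 (filterByExpr, TMM, quasi-likelihood test without covariates, two-sided, Benjamini-Hochberg, threshold 0.05). Of 67008 entries, 42204 had no read, and 14303 genes were tested, with 99.9% of the counts. The biological coefficient of variation was 19.1%. Alternatives used DESeq2 1.42.0, limma 3.58.1 (voom), other scalings, no filter, a replicate block, a length and GC correction (spline with 4 degrees of freedom), a threshold of 0.10, a fold of 1.5 with unadjusted p of 0.05, and each library left out. Some of the models were run on simulated counts with large known changes and no effect shared by same-numbered libraries. That run does not bear on differences as small as those of the members, or on the choice of a replicate block. Models, lengths and overlaps came from GENCODE 29 (58516 entries matched). The members and lists were chosen with earlier results of these data known. Named were all 10 members, STAU1, SRSF8 and SRSF12, and from each other list up to 6 called genes, or, where fewer than 2 passed, the 2 with the smallest unadjusted p. Genes at 0, overlap partners, DSC3 and DSG3 were named after their values were seen.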

Additional observations from a re-analysis of the deposited data

How the results depend on the processing

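The count of genes past the threshold, 372 in the fit reported, was 1449 by DESeq2, 11 with no filter on low counts, 1585 at an adjusted p of 0.10, 2098 by a fold of 1.5 with an unadjusted p of 0.05, and 214 to 2625 with 1 library left out (214 without Ctrl replicate 1, 226 without Ctrl replicate 2, 2625 without shSTAU1 replicate 1 and 1734 without shSTAU1 replicate 2). The number of SR splicing factors called higher was 0 to 2 with 1 library left out, and 0 under every other alternative without the replicate block. None was called lower under any alternative. Their median log2 difference ran from -0.08 (without shSTAU1 replicate 2) to 0.18 with 1 library left out. SRSF6 was at -0.03 under scaling by library size and by upper quartile. With 1 library left out, SRSF4 ranged from -0.05 to 0.20, SRSF6 from -0.15 to 0.17, SRSF7 from -0.13 to 0.30 and SRSF10 from -0.32 to 0.06, and the other 6 members kept their sign. The cause was not tested.

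The libraries of both groups carry the numbers 1 and 2, in their titles and at the start of the column headers. No label says whether same-numbered libraries shared a culture or day. Deviations of same-numbered libraries from their group means correlated at 0.27 over all tested genes and at 0.59 over the 4791 genes whose log2 CPM exceeds 5. A fit with this number as a replicate block called 4087 genes (28.6%), and 4051 (28.3%) with the block and the length and GC correction. In both fits 2 SR splicing factors were called higher, SRSF3 (adjusted p = 0.039 and 0.0119) and SRSF9 (0.00467 and 0.0194). SRSF8, outside the 10, was called too (0.0115 and 0.00545). Other lists also gained calls in the fit with the block alone. Of 31 SR-related proteins 5 were called higher and 5 lower, and of 12 kinase, phosphatase and importin genes 4 higher and 3 lower. Of 26 hnRNP proteins 13 were called higher and 2 lower, and of 14 decay and junction factors 4 higher and 3 lower. The p-values of block fits rest more on the spread shared across genes. STAU1 stayed past the threshold under every alternative, at -2.64 to -2.52. SRSF1 had the fewest reads of the 10, with at most 48 in a library.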
